A study of Homo sapiens with 6 samples.

Results

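Expression of the TRIM (tripartite motif) family, a large group of ubiquitin ligases and related proteins, was examined in LNCaP cells treated with CDKI-73. Members were the rows of the expression table whose symbol is TRIM followed by a number, such as *TRIM28* or *TRIM16L*, and whose mean over the 6 samples reached 0.5 CPM, a gene's read count scaled so that each library has the same total. Of 67 such symbols, 40 reached this level, out of 13373 genes at or above it in a table of 29744. The other 27 lay below it, and 10 of those were listed at 0 in all 6 samples. The member just inside the threshold was *TRIM22* with a mean of 0.52 CPM, and the gene just outside it was *TRIM54* with 0.205 CPM. A further 15 symbols that start with TRIM but carry a letter suffix, an antisense tag, a read-through name or the TRIML stem were not counted as members.

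LNCaP is an androgen-responsive human prostate cancer cell line. The cells were kept in RPMI-1640 medium with fetal bovine serum and received either 250 nM CDKI-73, an inhibitor of the transcription elongation kinase CDK9, or the vehicle DMSO, both for 4 h. According to the paper the compound is also active against CDK1, CDK2 and CDK7, and the part of each kinase was not tested here. Each group had 3 samples described as biological replicates, and polyA-selected RNA was sequenced with a stranded library kit. CDKI-73 also appears in the titles of the vehicle samples, which were placed by their treatment label, and the directions below rest on that label.

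TRIM proteins share an N-terminal arrangement of a RING finger, 1 or more B-box zinc-binding domains and a coiled coil. The RING finger recruits a ubiquitin-loaded E2 enzyme and passes the ubiquitin to a target protein, the coiled coil pairs TRIM molecules with each other, and the C-terminal domain usually selects the target. Many members act in the defence against viruses, either on viral particles or on the sensors and kinases that switch on interferon and NF-kB. Others regulate transcription, and several of these bind chromatin or nuclear receptors such as the androgen receptor of prostate cells. CDK9 releases RNA polymerase II from its pause near gene starts, and its inhibition lowers short-lived transcripts first.

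The 6 libraries held about 46084314 to 60923634 gene-assigned reads, inferred from the step between neighbouring CPM values. All 11 luminal prostate markers looked up were detected, with summed levels of 9187 to 9477 CPM with DMSO and 7687 to 7769 CPM with CDKI-73. Summed markers of other cell types were low, at 10.2 to 10.8 CPM with DMSO and 13.6 to 16.2 CPM with CDKI-73 for stroma, 4.96 to 5.77 and 6.51 to 7.54 CPM for immune cells, 10.0 to 10.1 and 10.0 to 11.9 CPM for endothelium, and 0.54 to 1.21 and 1.14 to 1.39 CPM for basal cells. Their part in the values of the TRIM genes was not tested. CDKI-73 replicate 3 had the lowest of the treated values in 45.2% of all genes tested and in 21 of the 40 TRIM genes (52.5%). CPM are shares of a library, so a fall in the total RNA of a cell would not show in them, and in a bulk sample fewer cells of a type and less RNA per cell cannot be told apart.

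TRIM transcripts were mostly lower with CDKI-73. In limma on log2(CPM + 0.1), 29 of the 40 members (72.5%) fell with an adjusted p no greater than 0.05, the threshold used throughout, against 48.2% of all genes tested. The change was at least 2-fold downward in 19 members (47.5%), against 22.3% of all genes. Only *TRIM66* was higher (2.5%, against 24.2% of all genes), and 10 members did not pass the test. No member was higher by at least 2-fold in limma, where 1.11% of all genes were, and the count was also 0 at an unadjusted p under 0.05 and in limma's voom on the inferred reads. The median log2 fold change was -0.90 over the members and -0.18 over all genes. The 3 treated values were all below the 3 vehicle values in 31 members (77.5%, against 50% of all genes) and all above them in 3 (7.5%, against 25.9%), while the groups overlapped in 6. All 40 members enter these counts, since the level threshold was set on the mean of both groups. *TRIM22*, 1 of the 3 with all treated values above, reached it only through its CDKI-73 samples (mean 0.58 CPM, against 0.45 with DMSO).

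These counts depend on how the libraries are scaled. The median over all genes moved by 0.22 on the log2 scale under a trimmed mean of M-values, by 0.20 under a median of gene ratios, by 0.48 under an upper quartile and by -0.40 under scaling to *GAPDH*, *HPRT1* and *ACTB*. Members past the threshold in limma numbered 25 lower and 7 higher under the trimmed mean, where 38.6% of all genes were lower and 40.1% higher. They numbered 25 and 7 under the median of ratios (39.5% and 38.3% of all genes), 23 and 11 under the upper quartile (29.5% and 54.7%) and 37 and 0 under the reference genes (73.9% and 2.95%). The 7 higher under the trimmed mean and the median of ratios were *TRIM14*, *TRIM22*, *TRIM25*, *TRIM28*, *TRIM29*, *TRIM41* and *TRIM66*. The upper quartile added *TRIM3*, *TRIM16L*, *TRIM37* and *TRIM44*. Of the 29 members lower on CPM, *TRIM2*, *TRIM3*, *TRIM45* and *TRIM69* lost the call under the first 3 scalings and *TRIM5* and *TRIM16* under the upper quartile. There *TRIM3* passed in the opposite direction (0.30, limma, adjusted p = 0.0031). Members lower by at least 2-fold numbered 16, 16, 13 and 23, against 18.2%, 18.6%, 13.96% and 32.7% of all genes, and 13 members passed under all of them: *TRIM13*, *TRIM21*, *TRIM24*, *TRIM26*, *TRIM27*, *TRIM32*, *TRIM35*, *TRIM36*, *TRIM47*, *TRIM59*, *TRIM62*, *TRIM65* and *TRIM68*. The other 6, *TRIM4*, *TRIM11*, *TRIM38*, *TRIM39*, *TRIM46* and *TRIM56*, were lower under each scaling but fell short of 2-fold under the upper quartile, where *TRIM4* was -0.56 and *TRIM39* was -0.94. *TRIM4*, *TRIM46* and *TRIM56* also fell short under the trimmed mean (-0.83, -0.84 and -0.91) and the median of ratios (-0.86, -0.86 and -0.94).

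**Figure D1:**
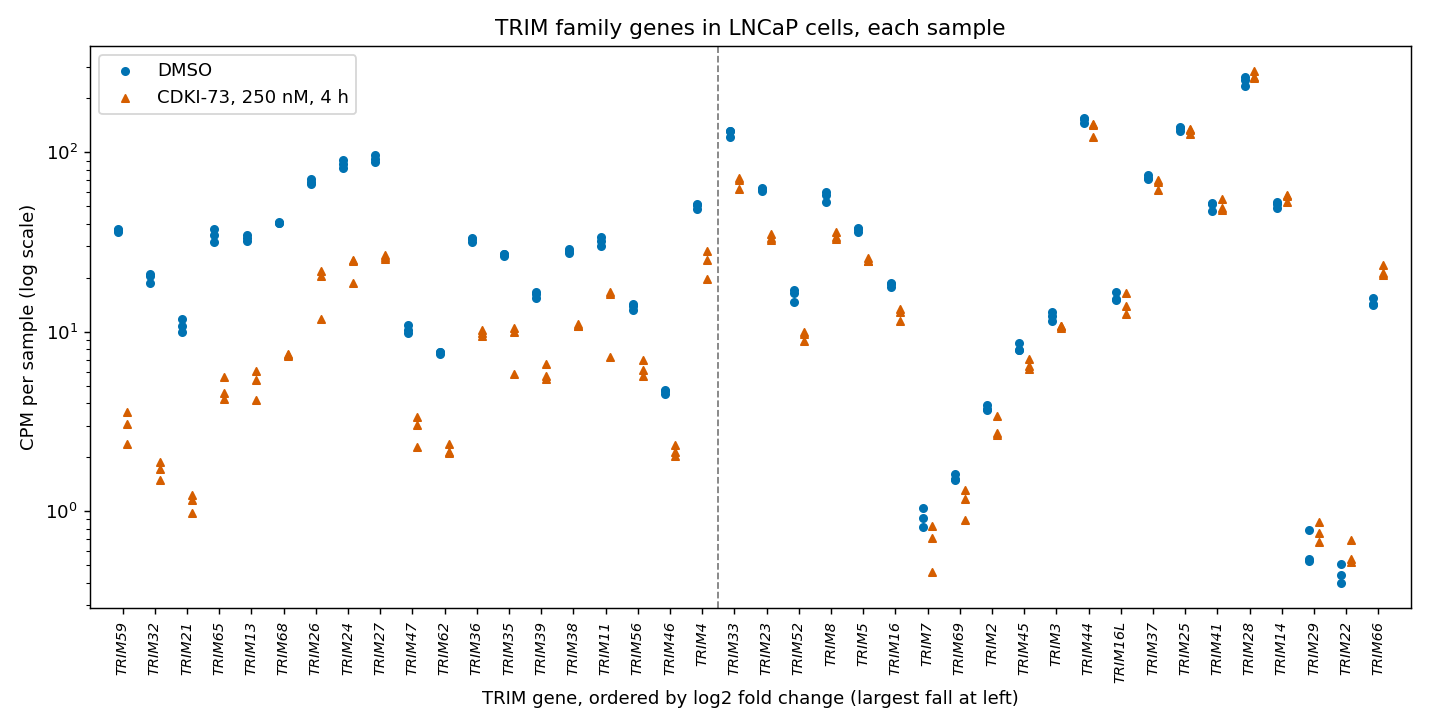
CPM of the 40 TRIM genes in each of the 6 samples (log scale), with circles for DMSO and triangles for 250 nM CDKI-73 at 4 h, ordered by log2 fold change. Left of the dashed line are the 19 genes lower by at least 2-fold, where triangles and circles do not overlap, and at the right end *TRIM66* has all 3 CDKI-73 samples above DMSO.

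The largest fall was that of *TRIM59*, one of the few TRIM proteins anchored in a membrane, in this case that of the endoplasmic reticulum. *TRIM59* (chr3:160435503-160449786, minus strand, hg38) was at 37.1, 36.9 and 36.0 CPM in DMSO replicates 1 to 3 and 3.06, 3.57 and 2.37 CPM in the CDKI-73 replicates. The groups were far apart, and the treated values spread more, with replicate 3 at 0.715 of the mean of the other 2. The log2 fold change was -3.59 ± 0.13 (SE, limma, adjusted p = 1.1e-07), and the mean CPM fell 12.2-fold. The other membrane-anchored member, *TRIM13* (chr13:49997042-50018467, plus strand), is a ligase of endoplasmic-reticulum-associated degradation. *TRIM13* was at 34.4, 33.4 and 32.2 CPM with DMSO and 5.39, 6.03 and 4.14 CPM with CDKI-73. Its groups did not overlap either, with a log2 fold change of -2.68 ± 0.13 (SE, limma, adjusted p = 3.6e-07).

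Both genes share exon sequence with other genes, counting every annotated transcript. The exons of *TRIM59* overlap those of *SMC4* on the opposite strand, which was at a log2 fold change of -0.29 (limma, adjusted p = 0.0086). *TRIM13* overlaps *KCNRG* on its own strand, which was lower by a log2 fold change of -1.41, and *DLEU2* on the other strand, which was higher by 0.37 at an adjusted p of 0.0069 in limma. Which strand was counted is not given in the sources used here, so reads of such pairs may not be fully separated.

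*TRIM32* had the second largest fall and is a member with C-terminal NHL repeats, a ligase whose mutations cause a limb-girdle muscular dystrophy. *TRIM32* (chr9:116687305-116701299, plus strand) was at 20.9, 20.4 and 18.6 CPM in DMSO replicates 1 to 3 and 1.87, 1.72 and 1.5 CPM in the CDKI-73 replicates. Treated samples kept 8.50% of the DMSO level, and the log2 fold change was -3.48 ± 0.10 (SE, limma, adjusted p = 4.7e-08). The gene lies inside an intron of *ASTN2* on the opposite strand, which was at -0.69 (limma, adjusted p = 0.00052). The 2 other NHL members are best known from neurons and moved far less. *TRIM2* was lower by a log2 fold change of -0.36 ± 0.11 (SE), and *TRIM3* by -0.19 ± 0.068 (limma, adjusted p = 0.020 and 0.036). The upper quartile turned both upward (0.12 and 0.30), and there *TRIM3* passed while *TRIM2* did not (limma, adjusted p = 0.0031 and 0.33). Leaving out CDKI-73 replicate 1, DMSO replicate 2 or DMSO replicate 3 ended the call of *TRIM2* (limma, adjusted p up to 0.072), and leaving out CDKI-73 replicate 1 or 2 or DMSO replicate 1 or 3 ended that of *TRIM3* (up to 0.13).

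The PRY-SPRY members with a RING finger form the largest class, with 18 of the 40. PRY-SPRY is a C-terminal fold that binds target proteins, and most antiviral TRIM proteins carry it. In limma 14 of the 18 were lower (77.8%, against 48.2% of all genes), 12 of them by at least 2-fold (66.7%, against 22.3%), 4 did not pass and the median log2 fold change was -1.40. *TRIM21* is a cytosolic receptor for the constant part of antibodies and destroys antibody-coated viruses. *TRIM21* (chr11:4384897-4393702, minus strand) was at 10.7, 9.97 and 11.8 CPM in DMSO replicates 1 to 3 and 1.23, 0.98 and 1.15 CPM in the CDKI-73 replicates. The mean CPM fell 9.67-fold, and the log2 fold change was -3.17 ± 0.11 (SE, limma, adjusted p = 1.0e-07).

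*TRIM65* is a ligase for the RNA sensor MDA5. *TRIM65* (chr17:75888963-75896951, minus strand) was at 37.6, 34.5 and 31.5 CPM with DMSO and 4.56, 4.24 and 5.62 CPM with CDKI-73. Its neighbour *TRIM47* (chr17:75874164-75878581) lies 10.4 kb away on the same strand and was at 10.9, 9.80 and 10.2 CPM with DMSO and 3.02, 2.27 and 3.36 CPM with CDKI-73. Both were lower in every treated sample, *TRIM65* by a log2 fold change of -2.83 ± 0.11 and *TRIM47* by -1.82 ± 0.14 (SE, limma, adjusted p = 1.6e-07 and 6.1e-06).

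*TRIM68* has been described as a ligase that acts as a coactivator of the androgen receptor. *TRIM68* (chr11:4598672-4608231, minus strand) was at 40.5, 40.4 and 40.8 CPM in DMSO replicates 1 to 3 and 7.29, 7.55 and 7.46 CPM in the CDKI-73 replicates. It varied little within either group, and its log2 fold change was -2.43 ± 0.053 (SE, limma, adjusted p = 2.1e-08). *TRIM62*, a regulator of epithelial cell polarity at chr1:33145399-33182043, was at 7.48, 7.76 and 7.70 CPM with DMSO and 2.37, 2.14 and 2.10 CPM with CDKI-73, a log2 fold change of -1.75 ± 0.086 (SE, limma, adjusted p = 4.4e-07).

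Promoter sequences of the members were read to show what lies upstream of genes that fell furthest and of genes that did not. RefSeq (GRCh38.p14) promoters were found for 28 of the 40 members, each with 250 bases before and 50 after the gene start. For *TRIM2*, *TRIM3*, *TRIM16*, *TRIM36*, *TRIM39* and *TRIM66* this start is not that of the canonical transcript, and all motif counts include these promoters. Of the 6 members with the largest falls, *TRIM13* had no promoter entry. *TRIM21*, with a larger fall than *TRIM65*, carried neither GGGCGG (the GC box) nor CCAAT on either strand of its 300 bases. The last 100 bases before the start are printed 5′ to 3′ for the other 4, with capitals for these motifs on either strand, so the printed set leaves out the promoter that lacks both.
TRIM59, chr3:160449787-160449886, minus strand: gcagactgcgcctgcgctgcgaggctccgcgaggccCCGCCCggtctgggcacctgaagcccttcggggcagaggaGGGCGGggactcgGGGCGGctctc
TRIM32, chr9:116687205-116687304, plus strand: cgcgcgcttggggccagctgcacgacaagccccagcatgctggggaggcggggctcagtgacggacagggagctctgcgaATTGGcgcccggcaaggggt
TRIM65, chr17:75896952-75897051, minus strand: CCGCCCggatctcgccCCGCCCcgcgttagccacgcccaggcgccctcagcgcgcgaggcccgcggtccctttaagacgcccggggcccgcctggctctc
TRIM68, chr11:4608232-4608331, minus strand: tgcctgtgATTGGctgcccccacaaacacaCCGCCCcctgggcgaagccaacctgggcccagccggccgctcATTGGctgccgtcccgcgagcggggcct
GGGCGG stood in 19 of 28 member promoters (67.9%, against 70.3% of 9487 promoters of genes tested), and in 9 of the 13 members lower by at least 2-fold and 10 of the 15 others. CCAAT stood in 11 (39.3%, against 37.3%), 7 of the 13 and 4 of the 15. TATAAA was found in 1 member promoter (3.57%, against 5.2%).

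4 of the PRY-SPRY members lie on chromosome 6, and each of them was lower by at least 2-fold. *TRIM27* (chr6:28903002-28923985), first found fused to the RET kinase, was at 96.7, 88.6 and 91.3 CPM with DMSO and 26.8, 26.2 and 25.3 CPM with CDKI-73. *TRIM26* (chr6:30184455-30213406), which limits interferon induction, was at 66.2, 68.4 and 70.7 CPM with DMSO and 20.5, 21.8 and 11.8 CPM with CDKI-73. *TRIM26* was unevenly low, with CDKI-73 replicate 3 at 0.559 of the mean of the other 2 treated samples. *TRIM39* (chr6:30326927-30343729), which slows degradation of the cell death protein MOAP1, was at 15.4, 16.8 and 16.2 CPM with DMSO and 5.68, 5.47 and 6.60 CPM with CDKI-73. *TRIM38* (chr6:25962802-25991231), a brake on Toll-like receptor signalling, was at 27.6, 28.3 and 29.1 CPM with DMSO and 10.8, 11 and 10.8 CPM with CDKI-73. Log2 fold changes were -1.97 for *TRIM26*, -1.82 for *TRIM27*, -1.43 for *TRIM39* and -1.37 for *TRIM38*, with SEs of 0.052 to 0.20 and adjusted p from 4.7e-08 to 4.0e-05 in limma. The exons of *TRIM39* overlap the read-through transcript *TRIM39-RPP21*, listed at 0, and *HCG18* on the opposite strand, at -0.46.

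The other 3 PRY-SPRY members past 2-fold were *TRIM35*, *TRIM11* and *TRIM4*. *TRIM35* (chr8:27284886-27311272), a ligase linked to pyruvate kinase and interferon regulation, was at 26.5, 27.2 and 27.1 CPM with DMSO and 10.5, 10.0 and 5.82 CPM with CDKI-73. *TRIM11* (chr1:228393676-228406835), a factor of protein quality control, was at 33.6, 29.9 and 32.1 CPM with DMSO and 16.2, 16.6 and 7.23 CPM with CDKI-73. *TRIM4* (chr7:99890403-99919530), which ubiquitinates the RNA sensor RIG-I, was at 51.6, 51.0 and 48.6 CPM with DMSO and 25.3, 28.3 and 19.8 CPM with CDKI-73. In all 3 the lowest sample was CDKI-73 replicate 3, at 0.440 of the mean of the other treated samples for *TRIM11* and 0.569 for *TRIM35*. Log2 fold changes were -1.66 ± 0.20, -1.34 ± 0.28 and -1.06 ± 0.12 (SE, limma, adjusted p = 9.9e-05, 0.0028 and 6.4e-05). Without that library they were -1.39, -0.95 and -0.91, which left 17 members past 2-fold.

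Of the remaining PRY-SPRY members, *TRIM5*, the restriction factor that binds retroviral capsids, was lower by a log2 fold change of -0.56 ± 0.049 (SE, limma, adjusted p = 1.4e-05), but by -0.061 under the upper quartile, where it did not pass (adjusted p = 0.29). *TRIM69* was at -0.44 ± 0.15 (limma, adjusted p = 0.031) and changed sign under the upper quartile (0.024). It did not pass under the trimmed mean or the median of ratios either (limma, adjusted p = 0.20 and 0.17), and leaving out CDKI-73 replicate 1 or any DMSO library also ended the call (adjusted p up to 0.097). *TRIM7* was at -0.45 ± 0.21 and did not pass (limma, adjusted p = 0.084) at a mean of only 0.80 CPM.

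*TRIM25*, *TRIM41* and *TRIM22* also did not pass. *TRIM25* (chr17:56887909-56914049) activates RIG-I and was at 137, 131 and 138 CPM with DMSO and 133, 135 and 126 CPM with CDKI-73. *TRIM41* (chr5:181223281-181235808) was at 51.5, 52.4 and 47.2 CPM with DMSO and 48.7, 47.9 and 55.1 CPM with CDKI-73. Their groups overlapped, and on CPM they had the smallest differences of the family at -0.041 ± 0.046 and 0.0035 ± 0.070 (SE, limma, adjusted p = 0.45 and 0.97). Both passed under each of the other scalings, upward under 3 of them (up to 0.46 and 0.50) and downward under the reference genes. *TRIM25* shares exon sequence with *C17orf67* on its own strand, which was lower by -1.26, and with *DGKE* on the other strand, at -0.32. *TRIM22*, an interferon-induced antiviral factor whose canonical transcript lies 4.72 kb from that of *TRIM5* on the opposite strand, was at 0.51, 0.44 and 0.40 CPM with DMSO and 0.54, 0.69 and 0.52 CPM with CDKI-73. All 3 of its treated values were the higher ones, and it reached the level threshold only through them. Its adjusted p was 0.13 in limma, with a log2 fold change of 0.31 ± 0.17. *TRIM22* passed upward under the trimmed mean (0.50), the median of ratios (0.48) and the upper quartile (0.72), with adjusted p from 0.0039 to 0.030 in limma. Under scaling to the 3 reference genes it was -0.030 and did not pass.

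A second set of promoter sequences shows the interferon-stimulated response element core, a pair of GAAA with any 2 bases between them, to which interferon-activated factors bind in many antiviral genes. It was present on either strand in 8 of the 28 member promoters (28.6%), against 2.72% of promoters of genes tested and 3.65% of all 27305. The 8 were *TRIM2*, *TRIM5*, *TRIM14*, *TRIM16*, *TRIM21*, *TRIM26*, *TRIM44* and *TRIM69*, of which *TRIM21* and *TRIM26* were lower by at least 2-fold. In 22 of the 28 the RefSeq start is that of the canonical transcript, and 6 of these 22 carry the repeat (27.3%). The other 6, *TRIM2*, *TRIM3*, *TRIM16*, *TRIM36*, *TRIM39* and *TRIM66*, start at least 458 bases away from it, so the promoters searched for these 6 belong to other starts. *TRIM2* and *TRIM16*, which carry the repeat, are among them. In *TRIM5*, *TRIM14*, *TRIM44* and *TRIM69*, with the same start in both, the repeat stands within the last 100 bases before the start, here in capitals (with TTTC in place of GAAA where it reads on the other strand).
TRIM5, chr11:5685075-5685174, minus strand: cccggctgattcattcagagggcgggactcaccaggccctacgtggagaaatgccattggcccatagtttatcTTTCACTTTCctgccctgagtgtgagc
TRIM14, chr9:98119223-98119322, minus strand: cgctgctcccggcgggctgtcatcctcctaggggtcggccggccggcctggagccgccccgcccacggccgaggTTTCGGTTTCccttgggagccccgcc
TRIM44, chr11:35662675-35662774, plus strand: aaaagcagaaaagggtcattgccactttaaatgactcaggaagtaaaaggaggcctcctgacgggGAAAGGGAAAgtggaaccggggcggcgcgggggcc
TRIM69, chr15:44736428-44736527, plus strand: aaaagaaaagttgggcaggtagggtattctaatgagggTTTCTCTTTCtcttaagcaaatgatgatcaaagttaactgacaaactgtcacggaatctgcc
In *TRIM21* the overlapping repeats follow the start, at chr11:4393670-4393685 on the minus strand, and read GAAACTGAAAGTGAAA. A match of letters is no evidence of binding, and the members with the repeat ranged from a log2 fold change of -3.17 for *TRIM21* to 0.13 for *TRIM14*. Of the other motifs among the 10 searched on both strands, CACGTG stood in 3 member promoters (10.7%, against 10.3% of promoters of genes tested), CCGGAAG in 1 (3.57%, against 19.7%), TGACGTCA in 0 (against 3.31%), TTTGGCGC in 2 (7.14%, against 1.17%), the NRF1 site in 1 (3.57%, against 2.38%) and the YY1 site in 0 (against 2.09%).

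**Figure D2:**
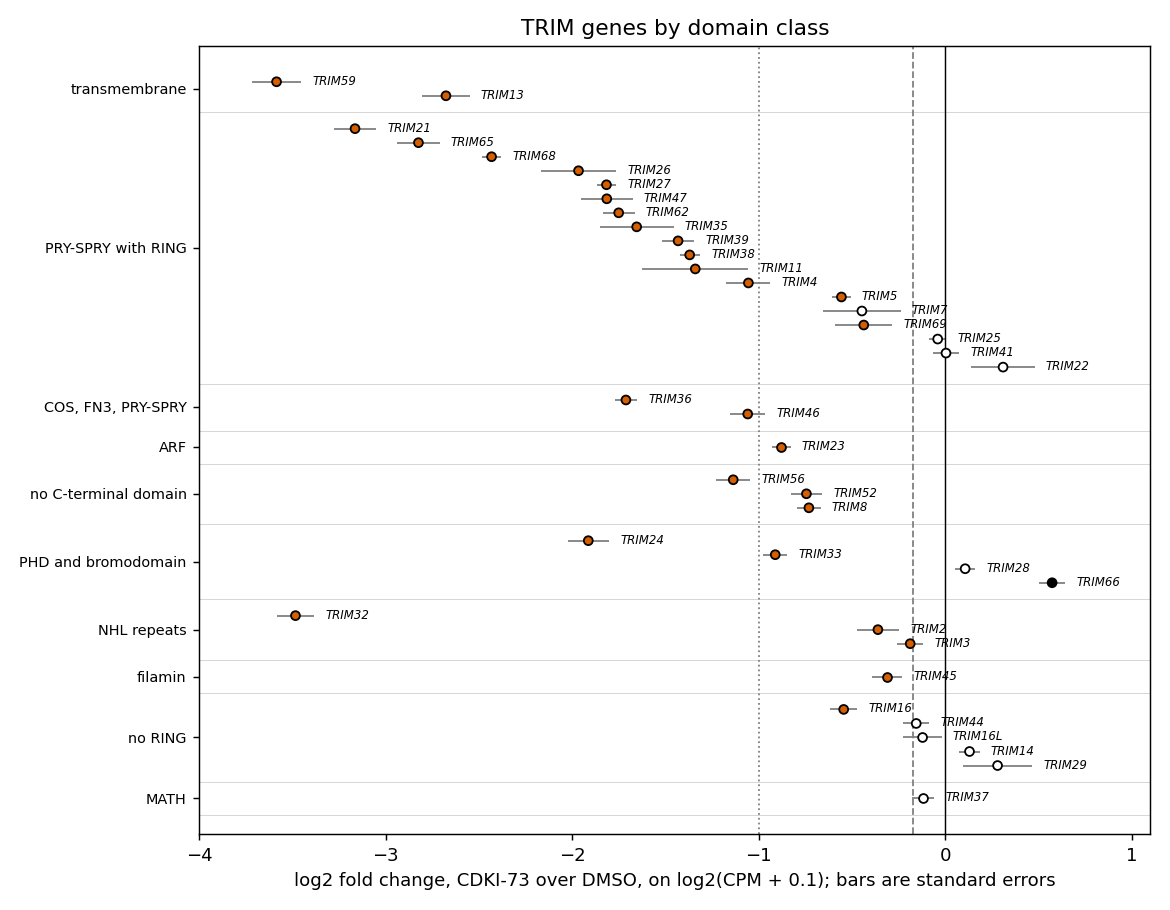
Log2 fold change (CDKI-73 over DMSO, on log2(CPM + 0.1), limma) of the 40 TRIM genes grouped by domain class, with bars of 1 standard error. Orange points fell and the black point rose past the threshold, open points did not pass, the dotted line marks a 2-fold fall and the dashed line is at the all-gene median. In the row of PRY-SPRY members with a RING finger 12 of 18 points lie left of the dotted line, against none of the 5 in the row without a RING finger. The rows do not divide members by PRY-SPRY alone, and the difference between them was not tested.

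The 4 members with a PHD finger and a bromodomain bind chromatin, and they went in different directions. *TRIM24* (chr7:138460259-138589996), which reads histone H3 and coactivates nuclear receptors including the androgen receptor, was at 82.0, 85.8 and 90.2 CPM in DMSO replicates 1 to 3 and 25.3, 24.8 and 18.7 CPM in the CDKI-73 replicates. *TRIM33* (chr1:114392790-114511203), which acts on SMAD4 in TGF-beta signalling, was at 122, 131 and 132 CPM with DMSO and 69.9, 72.3 and 62.7 CPM with CDKI-73. *TRIM24* was lower by a log2 fold change of -1.91 ± 0.11 and *TRIM33* by -0.91 ± 0.064 (SE, limma, adjusted p = 1.1e-06 and 3.5e-06), and neither pair of groups overlapped. *TRIM33* is the member just outside the 2-fold line, as *TRIM4* is just inside it.

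*TRIM28* (chr19:58544064-58550715), the corepressor that KRAB zinc finger proteins recruit to silence retroelements, was the most abundant member per length of transcript. *TRIM28* was at 261, 235 and 252 CPM in DMSO replicates 1 to 3 and 264, 259 and 282 CPM in the CDKI-73 replicates. The groups overlapped, and the log2 fold change of 0.11 ± 0.055 (SE) did not pass on CPM (limma, adjusted p = 0.11). *TRIM28* passed upward under the trimmed mean (0.33), the median of ratios (0.31) and the upper quartile (0.60). It passed downward under the reference genes (-0.30), with adjusted p of these fits from 1.6e-05 to 0.0012 in limma. *TRIM66* (chr11:8612040-8682665), a relative best known from testis, was at 14.2, 14.3 and 15.5 CPM with DMSO and 21.3, 23.5 and 20.7 CPM with CDKI-73. Its treated values were all the higher ones, at a log2 fold change of 0.57 ± 0.071 (SE, limma, adjusted p = 1.3e-04). It was positive under each scaling, from 0.17 with the reference genes, where it did not pass, to 1.07 with the upper quartile.

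The COS, FN3 and PRY-SPRY class holds microtubule-binding members, and both that reached the level threshold were lower by at least 2-fold. *MID1* and *MID2*, of the same class under another name, were at -0.28 ± 0.18 and -0.22 ± 0.068. *TRIM36* (chr5:115124772-115169908) was at 31.6, 33.1 and 33.0 CPM with DMSO and 10.3, 9.50 and 9.81 CPM with CDKI-73. *TRIM46* (chr1:155173849-155184970), which organizes microtubules at the start of the axon, was at 4.51, 4.74 and 4.65 CPM with DMSO and 2.33, 2.04 and 2.15 CPM with CDKI-73. Log2 fold changes were -1.71 ± 0.059 for *TRIM36* and -1.06 ± 0.092 for *TRIM46* (SE, limma, adjusted p = 8.7e-08 and 1.4e-05). *TRIM46* fell short of 2-fold under the trimmed mean, the median of ratios and the upper quartile (-0.84, -0.86 and -0.58).

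All 3 RING members with no named C-terminal domain were lower. *TRIM56* (chr7:101085481-101097967), an antiviral ligase, was at 13.2, 13.99 and 14.3 CPM with DMSO and 6.16, 6.96 and 5.64 CPM with CDKI-73, a log2 fold change of -1.14 ± 0.090 (SE, limma, adjusted p = 7.4e-06). *TRIM52* was at -0.75 ± 0.084 and *TRIM8*, a regulator of cytokine signalling, at -0.73 ± 0.064 (limma, adjusted p = 7.0e-05 and 1.4e-05). *TRIM23*, which carries an ARF GTPase domain, was lower by -0.88 ± 0.049, and *TRIM45*, with a filamin-type domain, by -0.31 ± 0.080 (limma, adjusted p = 9.0e-07 and 0.0077), the latter at 0.18 under the upper quartile.

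*TRIM37*, whose MATH domain sets it apart and whose loss causes mulibrey nanism, was at 70.9, 74.9 and 71.98 CPM with DMSO and 70.2, 68.7 and 61.7 CPM with CDKI-73. Its treated values were all the lower ones by a small margin, and the log2 fold change of -0.12 ± 0.059 (SE) did not pass (limma, adjusted p = 0.099) and was positive under 3 of the 4 other scalings.

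Members without a RING finger stood at small differences on CPM. *TRIM44*, which has a ubiquitin-protease-type zinc finger in place of the RING, was at 145, 154 and 153 CPM with DMSO and 143, 143 and 122 CPM with CDKI-73. Its treated values were lower in all 3 samples, but the log2 fold change of -0.16 ± 0.069 did not pass (limma, adjusted p = 0.070) and was 0.34 under the upper quartile. *TRIM16*, which binds galectin-3 at damaged lysosomes, was lower by -0.55 ± 0.073 (SE, limma, adjusted p = 2.0e-04), but did not pass under the upper quartile (-0.051, adjusted p = 0.55). Its near-identical copy *TRIM16L* was at -0.12 ± 0.10 and did not pass (limma, adjusted p = 0.31), and reads could be split between these copies. *TRIM14*, an adaptor of the mitochondrial antiviral protein MAVS, was at 0.13 ± 0.054 and *TRIM29* at 0.28 ± 0.19 (limma, adjusted p = 0.060 and 0.20). Both passed upward under the trimmed mean (0.36 and 0.48), the median of ratios (0.33 and 0.46) and the upper quartile (0.63 and 0.71). Under the reference genes both were below 0.

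Counted by the RING finger, 28 of the 34 members that carry one were lower (82.4%, against 48.2% of all genes) and 19 of them by at least 2-fold (55.9%, against 22.3%), with a median log2 fold change of -1.10. Of the 6 without one, *TRIM66* included, 1 was lower, 1 higher and 0 lower by at least 2-fold in limma, a count that was also 0 at an unadjusted p under 0.05 and with voom. Their median was 0.0037. Over all genes the median was -0.18, and the difference between these classes was not tested.

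Per length of transcript, the DMSO level ranged from 0.16 CPM per kb for *TRIM22* to 74.2 for *TRIM28*. The next were *TRIM27* at 31.1, *TRIM25* at 23.6, *TRIM8* at 20.6 and *TRIM26* at 19.5 CPM per kb. With CDKI-73 the level of *TRIM27* was 8.80 CPM per kb and that of *TRIM26* was 5.13, below the 22.9 of *TRIM25*. By mean CPM over the 6 samples, members at 5 to 20 CPM were lower by at least 2-fold in 10 of 16 cases (62.5%), against 35.1% of all genes at that level. At 20 to 100 CPM the count was 7 of 14 (50%, against 21.5%), at 0.5 to 5 CPM 2 of 7 (28.6%, against 23.8%), and at 100 CPM or more 0 of 3 in limma, against 5.22%.

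**Figure D3:**
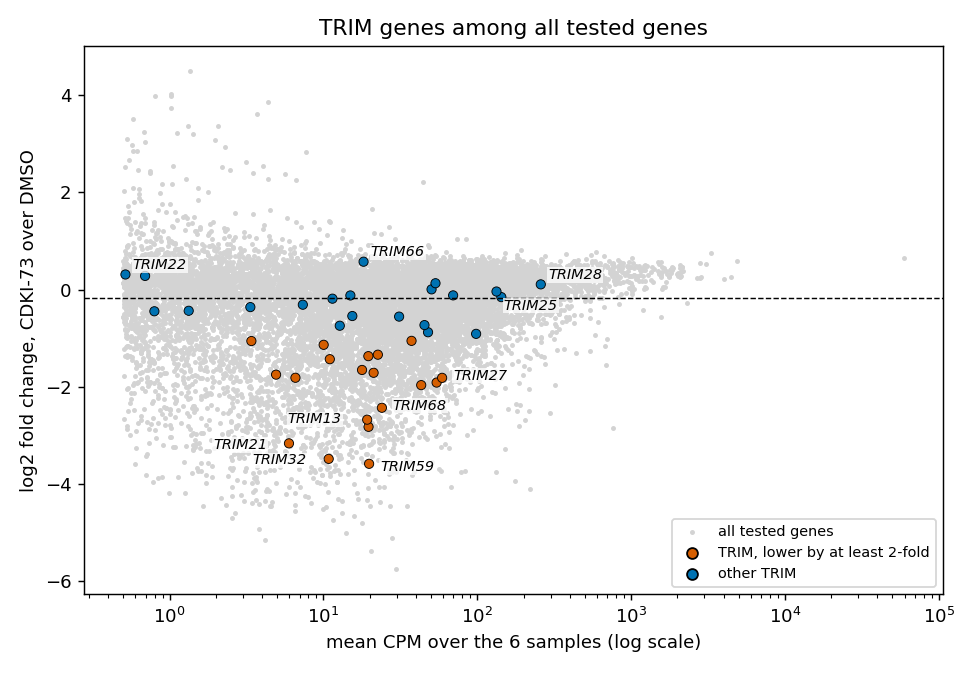
Log2 fold change (CDKI-73 over DMSO, on log2(CPM + 0.1)) against mean CPM over the 6 samples (log scale) for all 13373 genes tested in grey and the 40 TRIM genes in colour, orange where the fall passed 2-fold in limma. A dashed line at -0.18 gives the all-gene median, and the orange points lie between 3 and 60 CPM, while *TRIM28* and *TRIM25* above 100 CPM lie close to 0.

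By place in the genome, all 4 members on chromosome 6 and all 3 on chromosome 7 (*TRIM4*, *TRIM24* and *TRIM56*) were lower by at least 2-fold in limma, against 25.2% and 23.5% of all genes on these chromosomes. The count was 3 of 5 on chromosome 1 (24.4% of all genes there), 2 of 8 on chromosome 11 (20.4%), 2 of 6 on chromosome 17 (22.5%) and 1 of 5 on chromosome 5 (21.7%). These counts are on CPM as deposited. *TRIM4* and *TRIM56* on chromosome 7 and *TRIM46* on chromosome 1 fell short under the trimmed mean, the median of ratios and the upper quartile. *TRIM38* and *TRIM39* on chromosome 6 and *TRIM11* on chromosome 1 fell short under the upper quartile. By the span of the canonical transcript, 10 of the 16 members under 20 kb were lower by at least 2-fold (62.5%, against 24.4% of all genes), 8 of the 17 at 20 to 50 kb (47.1%, against 24.9%) and 1 of the 7 longer ones (14.3%, against 19.7%). That 1 was *TRIM24*, at 129.7 kb. Across the 40 members the log2 fold change and the number of exons (on a log2 scale for r) had a Pearson r of 0.46 and a Spearman rho of 0.35, against 0.24 and 0.15 across 11678 genes with an annotated transcript. Exon number had the largest values of the features compared. Across the members r and rho were 0.30 and 0.27 for span and 0.11 and 0.034 for transcript length. They were -0.033 and 0.035 for mean CPM and -0.18 and -0.087 for the DMSO mean. *TRIM32* and *TRIM13*, both with 2 exons, and *TRIM59*, with 3, were among the 5 largest falls, and *TRIM66* has 25. *TRIM52*, also with 2 exons, was at only -0.75, and *TRIM24*, with 19, was at -1.91. These members share the same 6 libraries and are not independent, so the correlations are a description only.

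Partners of the TRIM proteins were counted from lists of named genes. TRIM proteins with other names had 3 of 6 genes at a testable level. *PML*, the organizer of PML nuclear bodies, was lower by a log2 fold change of -0.80 ± 0.078 and *MID2*, a microtubule-bound ligase, by -0.22 ± 0.068 (SE, limma, adjusted p = 2.6e-05 and 0.017), while *MID1* was at -0.28 ± 0.18 and did not pass. Under the upper quartile 1 of the 3 was lower and 1 higher.

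Antiviral sensing and NF-kB signalling, where many TRIM ligases act, had 34 of 36 genes tested, with 25 lower (73.5%, against 48.2% of all genes) and 1 higher (*IRAK1*). At least 2-fold lower were 7 (20.6%, against 22.3%). The median log2 fold change was -0.41. *TRAF6*, an adaptor ligase of Toll-like receptors, was at -3.46 ± 0.13, *TBK1*, the kinase of IRF3, at -2.07 ± 0.12, and *NFKBIA*, the inhibitor of NF-kB, at -1.53 ± 0.11. *DDX58*, which encodes RIG-I, was at -1.50 ± 0.093 and *RNF135*, another RIG-I ligase, at -1.20 ± 0.063 (SE, limma, adjusted p of these 5 from 1.2e-07 to 3.4e-06). Under the upper quartile, where 29.5% of all genes were lower and 54.7% higher, 12 were lower and 11 higher.

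Listed partners of TRIM28, most of them in gene silencing, had 22 of 24 genes tested, with a median of -0.11. In limma 10 were lower (45.5%) and 6 higher (27.3%), shares near the 48.2% and 24.2% of all genes. The 6 higher were *CHD3*, *HDAC1* and *HDAC2* and, outside gene silencing, the MAGE genes *MAGEA3*, *MAGEA6* and *MAGEC2*. Their log2 fold changes ran from 0.11 for *HDAC2* to 0.41 for *CHD3*. *DNMT3B*, a DNA methyltransferase, was at -1.70 ± 0.094, *ATF7IP*, a cofactor of SETDB1, at -1.46 ± 0.060, *SETDB1*, the histone H3 lysine methyltransferase that TRIM28 recruits, at -1.43 ± 0.059, *UHRF1* at -1.38 ± 0.058 and *FAM208A*, a subunit of the HUSH complex, at -0.79 ± 0.053 (SE, limma, adjusted p from 1.8e-07 to 2.6e-06). *TRIM28* itself did not pass on CPM but passed under each of the other scalings, and the difference from its partners was not tested. With the upper quartile 5 were lower and 14 higher, against 29.5% and 54.7% of all genes.

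Listed enzymes that load and carry ubiquitin, not all of them known to work with TRIM ligases, had 31 of 31 genes tested. In limma 16 were lower (51.6%, against 48.2% of all genes) and 5 higher (16.1%, against 24.2%), with a median of -0.16. At least 2-fold lower were 3 (9.68%, against 22.3%). *UBE2G1* was at -1.99 ± 0.057, *UBE2O* at -1.92 ± 0.076, *UBE2R2* at -1.04 ± 0.040, *UBE2J2* at -0.77 ± 0.056 and *UBE2B* at -0.76 ± 0.064 (SE, limma, adjusted p from 4.7e-08 to 1.2e-05). All 5 encode E2 enzymes, and the first 3 passed 2-fold. With upper-quartile scaling 6 genes were lower and 24 higher, against 29.5% and 54.7% of all genes.

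**Figure D4:**
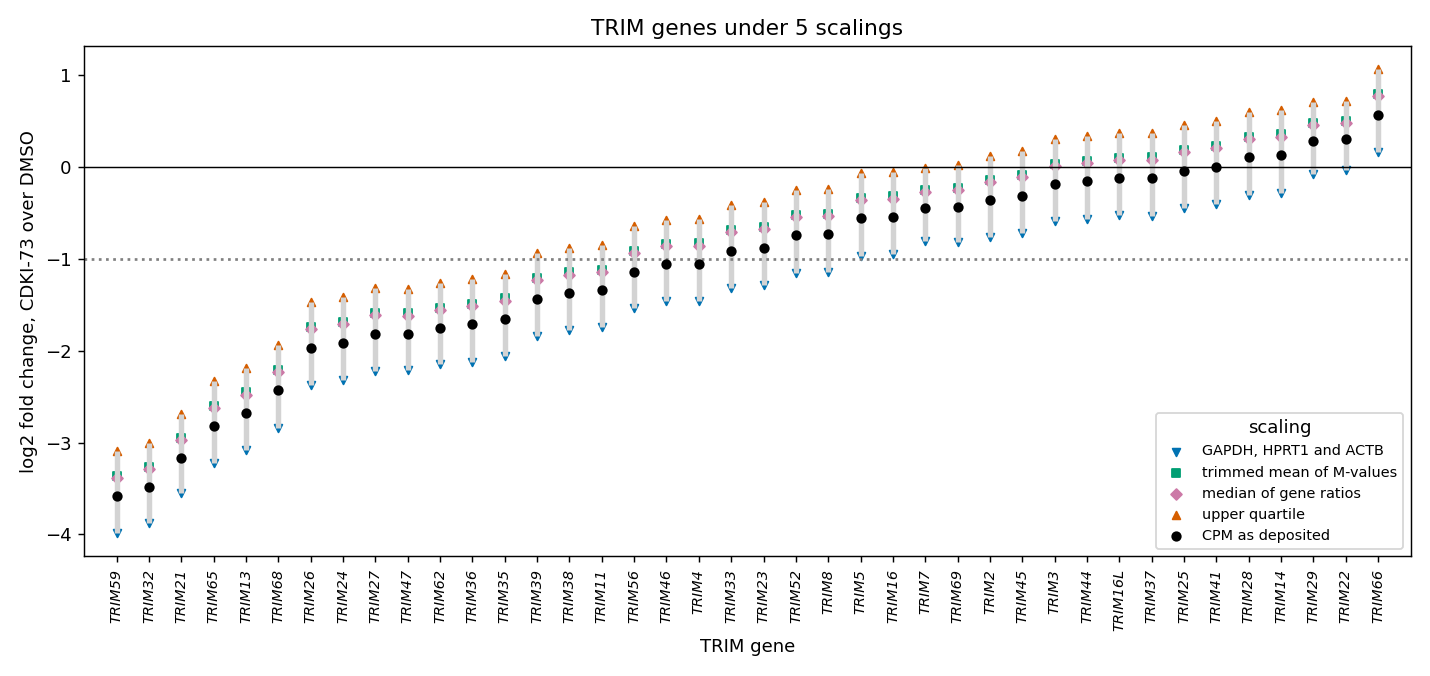
Log2 fold change (CDKI-73 over DMSO) of the 40 TRIM genes under CPM as deposited and under 4 other scalings, ordered as by CPM, with the dotted line at a 2-fold fall. Each scaling moves all genes by about the same amount, so *TRIM59* stays between -3.99 and -3.10 while genes near 0, such as *TRIM25* (-0.45 to 0.46), change sign.

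Below the level threshold, *TRIM74* was at 0.02, 0.02 and 0.04 CPM with DMSO and 0.21, 0.17 and 0.33 CPM with CDKI-73. It is nearly identical to *TRIM73*, which lay at 0 to 0.07 CPM, so its reads are uncertain, and it was not tested.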

How the data were processed

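RNA-seq of LNCaP cells was analysed, with 3 samples given 250 nM CDKI-73 and 3 given DMSO for 4 h. The deposited table gives CPM per gene symbol, which the authors made from stranded single-end reads aligned by STAR (genome build hg38) and summarised by gene. Processing notes of the submitters name FastQC, STAR, edgeR 3.3 and R 3.2.3. Which annotation and strand setting served is not given in the sources used here. CPM are rounded to 0.01 and carry no further scaling factor. Depth (about 46084314 to 60923634 reads) was inferred from steps between values, so low genes rest on few reads.

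Genes with a mean of at least 0.5 CPM entered a linear model of log2(CPM + 0.1) in limma (version 3.58.1, R 4.3.3; lmFit, then eBayes with a trend and no block), and p was adjusted over 13373 genes by Benjamini-Hochberg. A call needs an adjusted p no greater than 0.05. Log2 fold changes carry the 0.1 CPM offset and so understate low genes, while falls of the mean CPM are ratios without it. The script was tested on simulated data. Every TRIM gene is named, and sample values are given for those past 2-fold, the 6 most abundant, the 2 with the smallest change and those singled out after their values were seen (*TRIM22*, *TRIM66*, *TRIM74*). Of other lists, up to 5 members with the largest change past the test are named, with others only where a count needs them. Domain classes and lists were written from general knowledge, and members and lists were chosen with earlier results of these data known. Coordinates are canonical transcripts of GENCODE 44 on hg38. Plots used matplotlib 3.10.9, and tables pandas 2.3.3 in Python 3.11.15. P-values measure the spread between these samples only.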

Additional observations from a re-analysis of the deposited data

How the results depend on the processing

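Scaling had the largest effect on the TRIM genes. The median log2 fold change of the members, -0.90 on CPM, was -0.67 under a trimmed mean of M-values, -0.69 under the median of gene ratios, -0.40 under the upper quartile, -1.30 under the 3 reference genes and -0.67 under limma's voom on the inferred reads, an alternative chosen after seeing the data. It was -1.06 with a filter at a mean of 2 CPM, where 36 members were left. Members that passed upward in limma numbered 7, 7, 11, 0 and 7 under those 5 scalings, against 1, and 1 was higher by at least 2-fold under the upper quartile (*TRIM66*). Signs changed for genes close to 0. Values were 0.036 for *TRIM3*, 0.070 for *TRIM44*, 0.10 for *TRIM16L*, 0.18 for *TRIM25* and 0.11 for *TRIM37* under the trimmed mean, 0.011 for *TRIM3*, 0.045 for *TRIM44*, 0.078 for *TRIM16L*, 0.16 for *TRIM25* and 0.081 for *TRIM37* under the median of ratios, and 0.034 for *TRIM3*, 0.071 for *TRIM44*, 0.097 for *TRIM16L*, 0.19 for *TRIM25* and 0.11 for *TRIM37* with voom. Under the upper quartile they were 0.30 for *TRIM3*, 0.34 for *TRIM44*, 0.37 for *TRIM16L*, 0.46 for *TRIM25*, 0.38 for *TRIM37*, 0.18 for *TRIM45*, 0.024 for *TRIM69* and 0.12 for *TRIM2*. Under the reference genes they were -0.030 for *TRIM22*, -0.075 for *TRIM29*, -0.30 for *TRIM28*, -0.40 for *TRIM41* and -0.28 for *TRIM14*. These shifts follow from the scaling itself, which moves all genes together.

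Leaving out each sample in turn gave 26 to 30 members lower, 1 to 2 higher, 17 to 19 lower by at least 2-fold, 0 higher by at least 2-fold in limma and medians of -0.93 to -0.86. Only without CDKI-73 replicate 3 did *TRIM11* and *TRIM4* miss 2-fold and *TRIM14* pass upward and *TRIM16L* downward, while *TRIM7* passed downward without CDKI-73 replicate 1, and *TRIM2*, *TRIM3* and *TRIM69* lost their calls without some single libraries. *TRIM41*, close to 0, ranged from -0.060 without CDKI-73 replicate 3 to 0.042 without CDKI-73 replicate 2, and was also below 0 without DMSO replicate 3. Samples of the same replicate number did not vary together (correlations of their deviations of -0.29, 0.11 and -0.23). Pairs of unlike number ran from -0.22 to 0.34, highest for CDKI-73 replicate 3 with DMSO replicate 1, and a pairing under other numbers was not tested. With a replicate block 28 members were lower, 1 higher and 19 lower by at least 2-fold, with *TRIM3* no longer passing. The pseudocounts, no filter and the other eBayes forms gave 28 to 29 lower, 1 higher and 18 to 19 lower by at least 2-fold. Members under about 1 CPM, such as *TRIM7*, *TRIM22* and *TRIM29*, rest on few reads.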
